A study of Caenorhabditis elegans with 2 samples.

Results

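The Sra superfamily of Caenorhabditis elegans is made up of the chemoreceptor families sra, srab, srb and sre. Its genes were taken as the protein-coding genes of the Ensembl annotation of the WBcel235 genome whose symbol starts with one of these family names followed by a number. This gave 124 of 19973 protein-coding genes, of which 54 were sre, 35 were sra, 23 were srab and 12 were srb genes. LIM-7 binding over these genes was read from chromatin immunoprecipitation and sequencing (ChIP-seq) of whole L4 larvae, in 2 biological replicates that form 1 group. Both replicates came from strain OP779, which carries the integrated transgene wgIs779 (lim-7 fused to TY1, EGFP and 3xFLAG, together with unc-119(+)) in an unc-119(tm4063) background. The larvae were synchronized by L1 arrest and collected at 48.5 hours, and an antibody against GFP pulled down the tagged protein. Every sample therefore carried the transgene and the unc-119 mutation, and untagged worms were not analysed here. The labels name a possible control experiment, whose data were not used here. Because whole larvae were used, a peak does not tell in which cells LIM-7 was bound.

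Chemoreceptor genes of this kind encode G-protein-coupled receptors that span the membrane several times and detect chemicals in the worm's surroundings. Many are expressed in a few sensory neurons each, where they signal through G proteins and cyclic nucleotide-gated or TRP channels, and the families have grown through tandem duplication. LIM-7 belongs to the Islet class of LIM-homeodomain proteins, which regulate transcription, and is known from the sheath cells of the gonad. Homeodomain proteins commonly recognise sequences with a TAAT core. Genes for tRNAs and some other small RNAs carry promoter elements of RNA polymerase III, among them the B box with the core GTTCGA inside tRNA genes.

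The main list was the thresholded list made from both replicates together, which can hold a peak that a replicate's own list lacks. In it, 5 Sra superfamily genes had a LIM-7 summit between 2000 bp upstream of the gene start and the gene end. A summit is the point of highest signal in a peak. All 5 were sre genes, namely sre-23, sre-13, sre-1, sre-45 and sre-44, and together they held 6 summits. The sequences below are the DNA around 5 of these summits, shown because they let a reader see what the peaks rest on. They come from the WBcel235 genome and are given 5′ to 3′ on the strand of the sre gene. Each of the first 5 lies within the 100 bp around a summit. The last is the end of the tRNA-Leu gene inside sre-13, and nearly all of it, with its GTTCGA, lies outside the 100 bp around that summit. Capitals mark TAAT on either strand in sre-45, GAGAGA on the opposite strand in sre-13 and GTTCGA in the tRNA-Leu gene.
sre-1, upstream, chrII:7708711-7708796, plus strand: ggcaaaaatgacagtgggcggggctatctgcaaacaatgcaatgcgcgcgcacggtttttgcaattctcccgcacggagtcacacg
sre-45, intron 3, stronger summit, chrII:13522177-13522276, plus strand: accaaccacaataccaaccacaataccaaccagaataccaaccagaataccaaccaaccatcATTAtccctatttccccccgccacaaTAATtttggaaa
sre-45, intron 3, weaker summit, chrII:13521427-13521501, plus strand: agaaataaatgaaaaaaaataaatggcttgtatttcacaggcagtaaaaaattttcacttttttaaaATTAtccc
sre-44, intron 3, chrII:13951334-13951398, plus strand: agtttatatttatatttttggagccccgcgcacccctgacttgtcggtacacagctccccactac
sre-13, intron 3, chrII:14635377-14635455, minus strand: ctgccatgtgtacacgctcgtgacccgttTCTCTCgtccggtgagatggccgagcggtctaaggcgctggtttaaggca
sre-13, tRNA-Leu gene, bases 60 to 82, chrII:14635335-14635357, minus strand: ggGTTCGAatcccactctcatca

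None of the motifs was shared by the 5 genes, and counts from 6 windows cannot be told apart from the shares over all summits. TAAT on either strand lay within 100 bp windows of 2 of the 6 summits, both in sre-45, and in 32.3% of the windows of all 1804 summits. GTTCGA lay in none of the 6 windows, since in sre-13 the window ended before the 3′ end of the tRNA-Leu gene, and it lay in 18.2% of all windows. GAGAGA was found at 1 of the 6 (sre-13, 12.03% of all) and ACCACT at 1 of the 6 (sre-23, 17.7% of all). None of these words contains another, and a match is a description of the sequence, not a binding site. The stretches differed in base composition. The printed part at sre-13 was 59.5% G and C and that at sre-1 was 55.8%, while the printed part at the weaker summit of sre-45 was 22.7%.

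The strongest summit lay upstream of sre-23 (WBGene00013957; chromosome I, 8256301 to 8258939, minus strand). It was at position 8259563, upstream at -624 bp from the gene start, in a peak from 8259463 to 8259670. Its signal value was 434, which placed it 15th of the 1804 peaks of the list. Signal values are the authors', have no stated scale and are compared here within a list. The same peak had a signal value of 228 in replicate 1, where it ranked 9th of 883, and 203 in replicate 2, where it ranked 28th of 920. The summits of the replicates were 1 bp apart. It lay 65 bp upstream of the start of ZK265.10, a small nucleolar RNA (snoRNA) gene at 8259437 to 8259498 on the same strand as sre-23. Small nucleolar RNAs guide the modification of other RNAs.

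The next in strength was in sre-13 (WBGene00007997; chromosome II, 14634567 to 14636837, minus strand). Its summit at 14635405 lay in intron 3, 1432 bp downstream of the gene start, with a signal value of 172 and rank 424 of 1804. The value was 79.7 in replicate 1 (rank 500 of 883) and 85.9 in replicate 2 (rank 456 of 920), so the peak stood near the middle of each replicate's list. The summit was 11 bp inside a tRNA-Leu gene (WBGene00014283, C38C6.t1 in RefSeq; 14635335 to 14635416) that lies in the intron on the same strand. Of the 32-base words of this tRNA gene, 11.8% occurred once in the genome, and of those of the whole peak 82.95% did. In replicate 1 alone sre-13 had another summit in intron 2, 728 bp from the gene start, with a signal value of 48.0 and rank 850 of 883, in a peak of which 50.4% of the 32-base words were unique.

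The peak at sre-1 was the one far from any short noncoding gene. sre-1 (WBGene00005149; chromosome II, 7709704 to 7711504, plus strand) had its summit at 7708746, upstream at -958 bp from its start, with a signal value of 151 and rank 516 of 1804. In replicate 1 the value was 83.9 (rank 454 of 883) and in replicate 2 it was 64.2 (rank 711 of 920). The nearest tRNA, snRNA, snoRNA, miRNA or rRNA gene was 31255 bp away. The summit lay at -36 bp from the start of B0495.9, a gene that is transcribed away from sre-1, and it also fell in the window of luc-7L. The start nearest to it was thus that of B0495.9 and not that of sre-1.

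sre-45 (WBGene00010071; chromosome II, 13517900 to 13522989, plus strand) held 2 summits in its intron 3. The stronger, at 13522226, had a signal value of 113 (rank 777 of 1804), and the weaker, at 13521451, had 93.05 (rank 1137). The weaker one lay inside F54F11.6, a snoRNA gene at 13521301 to 13521471 on the same strand, and the stronger one lay 755 bp from that gene. The thresholded list of replicate 1 held a peak from 13521536 to 13521771, with a value of 52.2. It overlapped the peak of the weaker summit without reaching that summit. Its own summit was 203 bp away and lay 183 bp outside F54F11.6. The thresholded list of replicate 2 held a peak over the stronger summit, with a value of 69.6. Neither of these lists held a peak at both places. The ranked list of each replicate did hold a peak over the other summit, which missed the IDR limit of 0.01. In replicate 1 the stronger summit had a value of 47.2 (IDR 0.0342), and in replicate 2 the weaker one had 49.7 (IDR 0.0116). The IDR, or irreproducible discovery rate, estimates the share of non-recurring peaks among those that recur at least as consistently.

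The weakest of the 6 lay in sre-44 (WBGene00012329; chromosome II, 13949590 to 13951933, plus strand). Its summit at 13951383 was in intron 3, with a signal value of 80.7 and rank 1567 of 1804. It was absent from the conservative list and from the thresholded lists of both replicates. Its IDR was 0.00816 in the ranked list that the main list was drawn from. It was 0.0126 in the one for the conservative list, where the limit of 0.01 was not met. The ranked list of each replicate held an overlapping peak that missed the limit. The values were 40.4 in replicate 1 (IDR 0.0786) and 38.0 in replicate 2 (IDR 0.153). The summit lay 39 bp upstream of a small nuclear RNA (snRNA) gene at 13951422 to 13951608, one of 7 genes that Ensembl names C47F8.9. The 7 copies had the same sequence over 187 bp with 0 mismatches, none of their 32-base words was unique, and the copy in sre-44 was the only one of the 7 with a summit of the main list within 500 bp. A second copy upstream of sre-44, with its start at -432 bp and on the opposite strand, had its nearest summit 2225 bp away. How reads were assigned among the copies is not given in the sources used here.

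**Figure D1:**
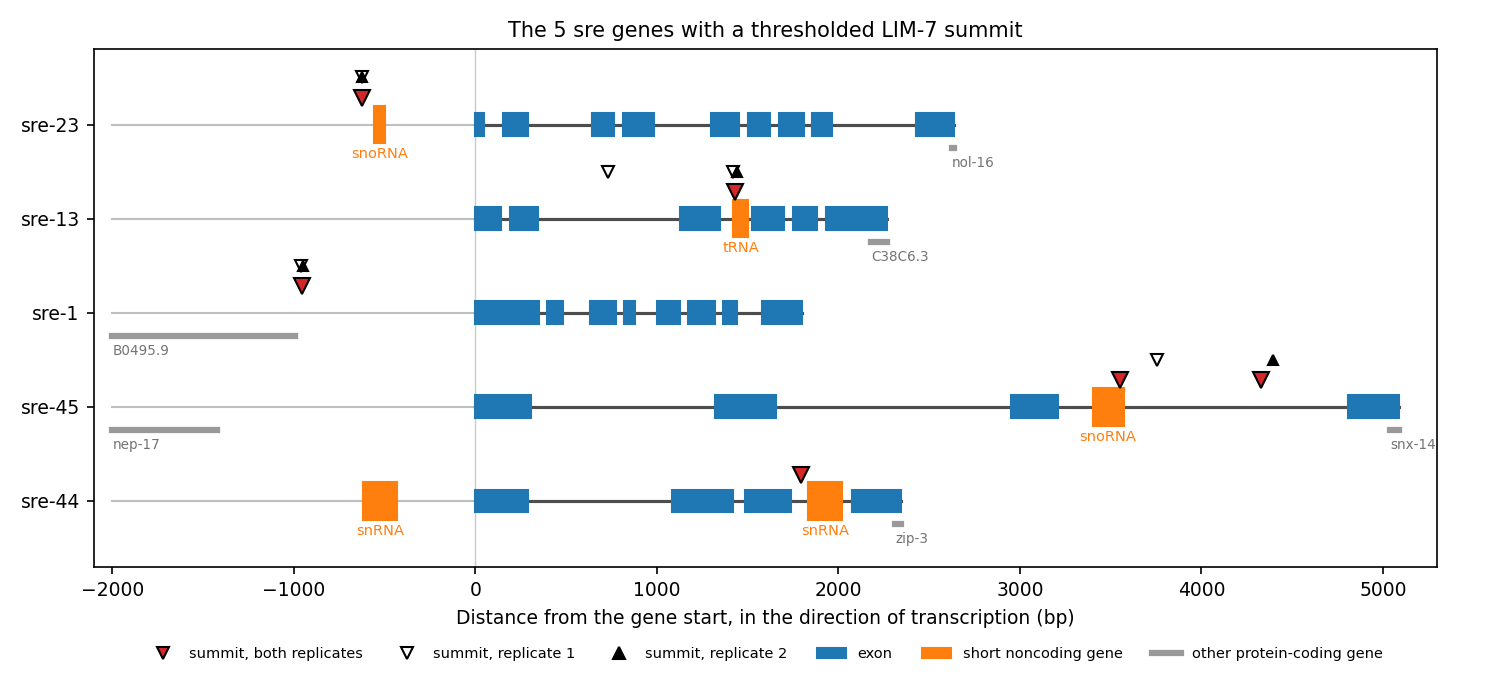
Gene maps of sre-23, sre-13, sre-1, sre-45 and sre-44, drawn to scale in bp from the gene start in the direction of transcription, with exons in blue, short noncoding genes in orange, other protein-coding genes in grey and summits as triangles (red for the list of both replicates, white for replicate 1, black for replicate 2). In 4 of the 5 genes a summit sits beside or inside a short noncoding gene, and at sre-1 it sits beside the start of B0495.9.

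Of the 6 summits, 4 lay within 500 bp of a short noncoding gene. Of the 124 Sra superfamily genes, 4 (3.23%) had a tRNA, snRNA, snoRNA, miRNA or rRNA gene in the window, against 1038 of 19849 other protein-coding genes (5.23%). All 4 of these Sra genes had a summit (exact 95% interval 39.8 to 100%), against 518 of 1038 others (49.9%). Without such a gene in the window, 1 of 120 Sra genes had a summit, sre-1 (0.833%, interval 0.0211 to 4.56%), against 1160 of 18811 others (6.17%). The Sra share was the same in the conservative and replicate lists. The share of others was 5.39% in the conservative list, 2.15% in replicate 1 and 2.25% in replicate 2, so in each replicate list it lay inside that interval. With such a gene, 3 of the 4 Sra genes had a summit in each of these lists. Over the whole list, 546 of 1804 summits (30.3%) lay within 500 bp of a short noncoding gene. These intervals cover counting error only, no test of the differences was run, and genes that share a window are not independent.

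Across the superfamily, the share of genes with a summit was 4.03% (5 of 124, interval 1.32 to 9.16%), against 8.45% of the other protein-coding genes (1678 of 19849). This interval holds the share of the other genes, so a lower share of summits was not resolved for the superfamily. The sre family alone stood at 9.26% (5 of 54, interval 3.08 to 20.3%), which holds the share of the other genes. None of 35 sra genes, 23 srab genes and 12 srb genes had a summit. The exact intervals reach up to 10.003% for sra, 14.8% for srab and 26.5% for srb. All 3 hold the share of the other genes, so at these family sizes a lower share was not detectable. The conservative list gave 4 of 124 Sra genes (3.23%), against 7.74% of other genes. Replicate 1 alone gave 4 Sra genes, against 4.13% of other genes, and replicate 2 alone gave 4, against 4.3%. In each replicate list the Sra share of 3.23% (interval 0.886 to 8.05%) therefore lay near that of the other genes. The 4 genes were sre-23, sre-13, sre-1 and sre-45 in all of these lists.

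**Figure D2:**
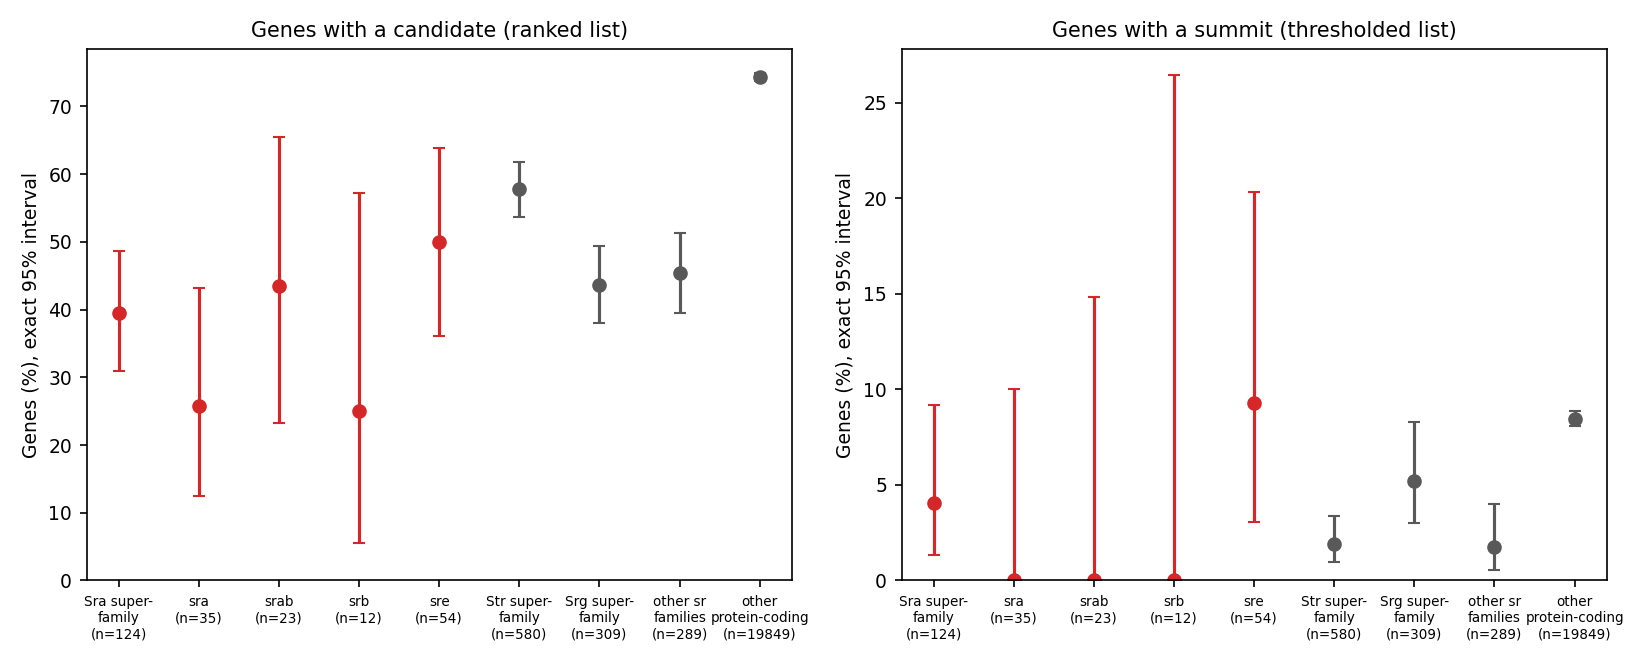
Share of genes (%) with a candidate in the ranked list of both replicates (left) and with a summit in the thresholded list (right), as points with exact 95% binomial intervals, for Sra superfamily genes and their 4 families in red and for other gene groups in grey. Sra genes stand at 39.5% and other protein-coding genes at 74.4% on the left, and at 4.03% and 8.45% on the right, where all 5 Sra genes are sre genes.

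Below the threshold, Sra genes held fewer candidates than other genes. A candidate is any peak of the ranked list of both replicates, which has 84720 entries, of which 1964 met the IDR limit of 0.01. At least 1 candidate summit fell in the windows of 49 of 124 Sra genes (39.5%, interval 30.9 to 48.7%), against 74.4% of other protein-coding genes (interval 73.7 to 74.96%). Per kilobase of window, Sra genes held 0.371 candidates and other genes 0.923. The ranked list of replicate 1 gave 60 Sra genes (48.4%), against 79.4% of other genes, and that of replicate 2 gave 60 (48.4%), against 79.1%. The lower share of Sra genes was thus seen in each replicate taken alone. Candidates were present in both replicate lists for 50 Sra genes (40.3%), against 72.5% of other genes, and in neither for 54 (43.5%), against 13.99% of other genes.

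By family, a candidate was found for 27 of 54 sre genes (50%), 10 of 23 srab genes (43.5%), 9 of 35 sra genes (25.7%) and 3 of 12 srb genes (25%). The intervals of the 4 families overlapped, and differences among the families were not tested. The replicates gave different shares for single families. For sra genes, 17 of 35 (48.6%) had a candidate in replicate 1 and 9 of 35 (25.7%) in replicate 2. For sre genes it was 27 of 54 in replicate 1 and 35 of 54 (64.8%) in replicate 2. The 192 pairs of a candidate and an Sra window came from 176 separate candidates, 16 of which fell in the windows of 2 or more Sra genes.

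Ranks were compared over all separate candidates and over the strongest of each gene. Over all separate candidates, the median rank percentile was 45.7 for the 176 in Sra windows (quartiles 24.5 and 73.7), against 50.2 for the 73161 in windows of other genes (quartiles 25.2 and 74.95). Among genes with a candidate, the strongest one had a median rank percentile of 76.8 for the 49 Sra genes, against 87.2 for the 14759 other genes. The strongest candidate was in the top 5% of the list for 10 Sra genes (8.06% of 124), against 17.9% of other genes, and in the top 10% for 16 (12.9%), against 31.3%. By construction a strongest candidate tends to rank lower where there are fewer to choose from, and Sra genes with a candidate held 3.92 each, against 6.495 for other genes with one. Other chemoreceptors stood close to Sra genes, with the strongest candidate in the top 10% for 12.9% of Str, 13.9% of Srg and 10.4% of the remaining families, and median percentiles of 79.3, 76.4 and 77.6 for these 3. By position, 57 of the 176 candidates (32.4%) lay in coding exons, 53 (30.1%) in introns, 47 (26.7%) upstream between protein-coding genes, 18 (10.2%) upstream but inside another protein-coding gene, and 1 in another exon. These places are given without those of candidates at other genes, so they do not show a trait of Sra genes. Of the 176, 8 (4.55%) had an IDR of 0.01 or less, beside 1964 of all 84720 candidates. These 8 were the 6 summits described above and a pair at sre-47.

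**Figure D3:**
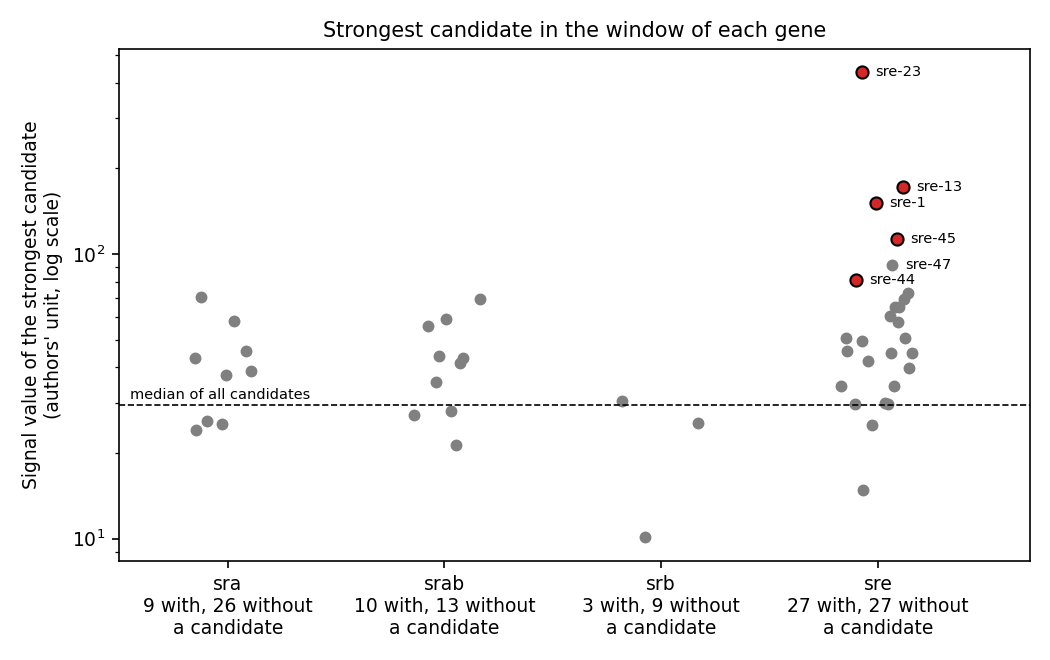
Signal value of the strongest candidate in the window of each Sra superfamily gene (log axis, authors' unit), by family, with the 5 genes that have a thresholded summit in red, genes without a candidate counted under each family and the median of all 84720 candidates as a dashed line. The sre genes reach 434 at sre-23, and the sra and srab genes stay at 70.6 and below.

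Among genes without a thresholded summit in any list, the 10 with the strongest candidates were 6 sre, 2 sra and 2 srab genes, with signal values of 58.0 to 91.2 and rank percentiles of 90.8 to 98.4. They were sre-47, sre-9, sra-14, sre-43, srab-10, sre-46, sre-50, sre-48, srab-16 and sra-35, which have no role that the files describe beyond their family. In 7 of the 10 the strongest candidate lay in an intron, and in sre-47 and sre-48 it lay upstream. The strongest sra candidate was at sra-14, 542 bp into the gene in an intron, with a signal value of 70.6 from both replicates, 43.3 in the list of replicate 1 and 30.6 in that of replicate 2. Its summit was at 519 bp in replicate 1 and at 516 bp in replicate 2, so both replicates placed it in the same intron. The strongest srab candidate was at srab-10, in an intron 933 bp from the start, with 69.3 from both replicates, 37.8 in replicate 1 and 36.4 in replicate 2. Both missed the limit, with IDRs of 0.0172 at sra-14 and 0.0433 at srab-10. At srab-10 the summits of the replicates were at 972 and 840 bp, and at sre-43 at 2173 and 2174 bp. For sre-9 the strongest candidate of replicate 2 lay upstream at -1500 bp from the gene start, and that of replicate 1 lay in an intron at 1843 bp. Likewise, at sre-50 it lay at -1774 bp in replicate 2 and at 928 bp in replicate 1. The replicates also had their strongest candidates at different places at sre-47, sre-46 and sra-35.

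The pair at sre-47 passed the IDR limit and still was not in the thresholded list. Their signal values were 91.2 and 90.1, both upstream of sre-47 on chromosome II at 13985030 and 13985667, with IDRs of 0.00322 and 0.00111. Of the 32-base words in these peaks, 18.9% and 4.55% were unique in the genome. Over the whole ranked list 1964 candidates had an IDR of 0.01 or less, and 160 of them were not in the thresholded list. The 160 had a median of 11.7% unique words and 149 of them (93.1%) were under 50% unique, against a median of 100% and 209 of 1804 (11.6%) for those in the list. In the sre-47 windows no short noncoding gene was near, the closest being 32687 bp away from 13985667. sre-47 is therefore not among the 5 genes with a summit, and the step that took such peaks out is not given in the sources used here.

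Sra genes differed from the other genes in features that also go with the number of candidates. Their windows had a median length of 3911 bp, against 4028 bp, and a median G and C content of 33.1%, against 35.7%. In windows under 35% G and C, 23 of 89 Sra genes (25.8%) had a candidate, against 52.3% of other genes. In windows of 35% or more, 26 of 35 (74.3%) had one, against 89.2%. The Sra share was lower in both classes, and within the Sra genes the class of higher G and C had the higher share. In windows of under 3500 bp 33.3% of Sra genes had a candidate, against 70.2% of other genes, and in those of 4500 bp or more 55.6% had one, against 79.0%. Repeats moved the shares little, since among windows with over 90% unique words 42 of 105 Sra genes (40.0%) had a candidate, against 75.9% of other genes. The part of G and C content in the lower share was not tested beyond these classes.

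Clustering in the genome went with fewer candidates. A total of 76 Sra genes had another Sra gene as their neighbour among protein-coding genes, and 48 did not. None of the 76 had a summit (interval 0 to 4.74%), and 20 (26.3%) had a candidate. Of the 48, 5 (10.4%) had a summit and 29 (60.4%) a candidate. The 4 Sra genes with a short noncoding gene in the window were all among the 48, so for summits the 2 features cannot be told apart. The 134 other genes that neighbour an Sra gene fell between, with 8 summit genes (5.97%) and 75 with a candidate (56.0%). Of the other genes away from Sra genes, 8.47% had a summit and 74.5% a candidate. By chromosome, 64 Sra genes lay on II, of which 43.8% had a candidate, against 82.7% of the other genes there. On V it was 34.3% of 35, against 68.2%, and on IV it was 30% of 10, against 66.6%. In the outer parts of chromosomes (outside the central part when each is divided into 3 equal parts), 49.4% of 83 Sra genes had a candidate, against 76.7% of others. In the central part the Sra share was 19.5% of 41, against 70.6%.

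**Figure D4:**
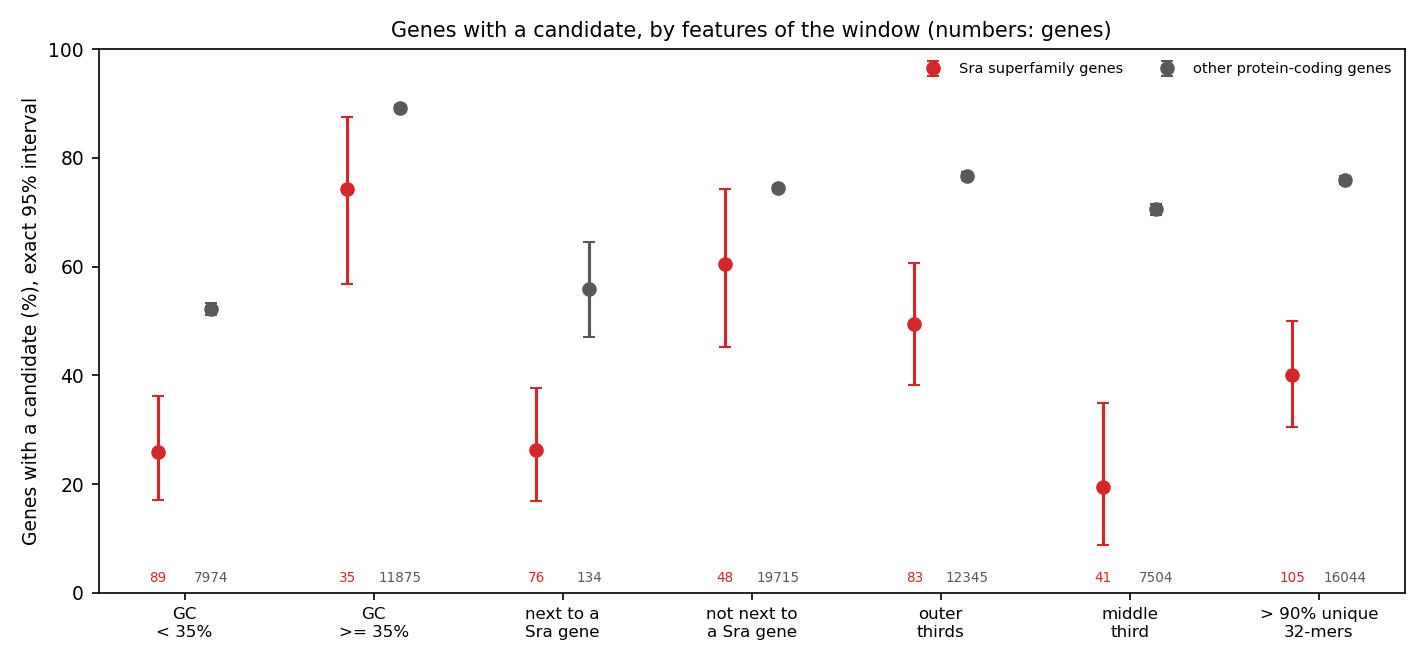
Share of genes (%) with a candidate in the ranked list of both replicates, as points with exact 95% binomial intervals, for Sra superfamily genes (red) and other protein-coding genes (grey) in classes of window G and C content, neighbours, chromosome position and repeats, with the number of genes at the foot of each point. Sra genes lie below other genes in every class drawn, for example at 74.3% and 89.2% where G and C content was 35% or more, and at 60.4% and 74.5% among genes with no Sra neighbour.

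Other chemoreceptors, counted in the same way, also had candidate shares below the 74.4% of other protein-coding genes. A summit was found for 4.03% of Sra genes, 1.90% of 580 Str superfamily genes, 5.18% of 309 Srg superfamily genes and 1.73% of 289 genes of the remaining families. For candidates the Sra share of 39.5% stood beside 57.8% for Str, 43.7% for Srg and 45.3% for the remaining families, and the interval of Str (53.6 to 61.8%) did not overlap that of Sra. Genes of chemosensory signalling, such as G proteins, channels, cyclases and factors of receptor traffic, were counted from a list of 36 that also holds 1 chemoreceptor gene, odr-10. Of the 36, 7 had a summit (19.4%, interval 8.19 to 36.02%) and 63.9% a candidate. Protein-coding genes outside the Sra superfamily stood at 8.45% for a summit, inside that interval, and at 74.4% for a candidate. Those with windows of 4500 bp or more stood at 11.5% and 79.0%. Without odr-10, 6 of 35 had a summit (17.1%, interval 6.56 to 33.6%) and 62.9% a candidate. Windows of Sra genes had a median of 3911 bp and those of these 35 genes 6537 bp, and 3 of the 6 had a short noncoding gene in the window.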

How the data were processed

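LIM-7 ChIP-seq peak lists of 2 biological replicates were used. Neither the aligner nor the peak caller is named in the sources used here. The authors deposited, in ce11 coordinates (the sequence of WBcel235), 4 thresholded and 4 ranked peak lists with a signal value for each peak, which is never negative and has no stated scale. The ranked lists, per the file columns the authors deposited, also give the global IDR on a −log10 scale, which was converted to an IDR. Read depth is unknown from peak lists, so no interval covers it.

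A gene's window ran from 2000 bp upstream of its start to its end, in Ensembl release 115 annotation, and a summit counted for every gene whose window held it. The thresholded list of both replicates (1804 peaks) was the main list. Summits within 500 bp of a tRNA, snRNA, snoRNA, miRNA or rRNA gene (1368 genes) were called near one. Names of these genes were also taken from RefSeq by identifier. Shares have exact binomial (Clopper-Pearson) 95% intervals. With 1 group and no control data used, no p-value was computed. Words of 32 bases were counted on both strands, and the window counts were tested on simulated data.

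Named genes were those with a summit in any thresholded list, the 10 others with the strongest candidate, the signalling genes with a summit, and the gene with the strongest summit of each other superfamily. The members and lists were chosen with earlier results of these data known. The classes by G and C content, neighbours, chromosome, window length and unique words, the ranks of all candidates and the count of signalling genes without odr-10 were added after the files were seen. Python 3.11.15, pandas 2.3.3 and scipy 1.17.1 were used.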

Additional observations from a re-analysis of the deposited data

How the results depend on the processing

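The 5 Sra genes with a summit depended on the window. A promoter of 1000 bp upstream to 200 bp downstream held a summit for 2 of them (3.32% of other genes), a window from 500 bp upstream to the gene end for 3 (5.66%) and the gene body alone for 3 (4.11%). Without summits near short noncoding genes 2 remained, sre-1 and sre-45, against 6.36% of other genes. In the promoter window 32 Sra genes had a candidate, against 59.4% of other genes. The list of replicate 1 alone gave 4 Sra genes with a summit, against 4.13% of other genes, and that of replicate 2 alone 4, against 4.3%. These lists held 4 to 5 summits in Sra windows. The ranked lists of the replicates gave 60 Sra genes each with a candidate, against 79.4% and 79.1% of other genes. The conservative list gave 4 genes (3.23%), against 7.74% of other genes, and the stronger part of the main list gave 4, against 4.26%. A peak overlap of 1 bp gave 5, against 8.96%. Counting a summit for the nearest gene start alone gave 4, against 5.51%. Of the 6 summits, 4 lay within 200 bp of a short noncoding gene and 5 within 1000 bp. The cause of these changes was not tested beyond how each window is built. No paired analysis was possible because the samples form 1 group and no test between groups was run. Small families, the unknown read depth and a control experiment that was not analysed here limit what these counts can show.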

Other observations

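In the other chemoreceptor superfamilies, the strongest summits were at srd-43 of the Str superfamily (signal value 391, inside a tRNA gene), srg-69 of the Srg superfamily (368, with the nearest short noncoding gene 60354 bp away) and srbc-38 of the remaining families (235.06). A short noncoding gene lay in the window of 4 Sra genes, all with a summit, and of 23 other chemoreceptor genes, 10 of them with a summit. Without one, 1 of 120 Sra genes and 22 of 1155 other chemoreceptor genes had a summit.

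Among genes of the chemosensory signalling list, odr-10, the receptor for diacetyl in the AWA neurons, had summits with signal values of 284 and 105, the stronger 48 bp from a snoRNA gene. The TRP channel gene osm-9 had one of 258 and the G protein gene gpa-1 one of 107, each inside a tRNA gene. The G protein gene egl-30 had summits of 152 and 105, the arrestin gene arr-1 one of 102, the regulator of G protein signalling gene eat-16 one of 94.9, and the phospholipase C gene egl-8 summits of 91.2 and 79.7.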
